A study of Arabidopsis thaliana with 35 samples.

Results

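The comparison is between the hypocotyl and the cotyledons of unwarmed Arabidopsis thaliana seedlings. Its members are the 12 arrays of hypocotyl and cotyledon tissue from seedlings that stayed at 20 °C, chosen by their titles, out of 35 arrays in the series. The 6 hypocotyl arrays were set against the 6 cotyledon arrays, with harvest time as a covariate. All seedlings were of the accession RRS-7, with no mutation or transgene named in the labels. Growth lasted 5 days at 20 °C in long days (16 h light, 8 h dark) under white LEDs giving 120 µmol PAR per m2 per s. These groups were the unwarmed controls of a warming experiment in which other plates were moved to 28 °C. Harvest was either at ZT 7 on day 6 (called 24 h, counted from the shift) or at ZT 10 on day 5 (called 3 h), where ZT is hours after lights on. The 4 groups were hypocotyl at 24 h, hypocotyl at 3 h, cotyledon at 24 h and cotyledon at 3 h, with 3 arrays each. Each array holds RNA pooled over several harvest sessions, and the labels call the 3 arrays of a group biological replicates. The 2 times are also 2 times of day, so age and time of day cannot be told apart between them.

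The hypocotyl is the stem of the seedling below the cotyledons. In the light its cells expand along the axis with little division, and it carries the vascular strands between root and shoot. The cotyledons are the embryonic leaves, which in Arabidopsis turn green, open, and become the first photosynthetic organs that export sucrose to the rest of the seedling. Genes of light harvesting and sucrose export are therefore textbook genes of the cotyledon blade, and genes of wall loosening and auxin response are textbook genes of the growing axis.

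The values are the authors' log2 expression values for 22746 probe sets of the Affymetrix ATH1 array. A probe set is a group of short probes for 1 transcript, and 13513 of the probe sets carried a single gene in the annotation at hand, which gave 13355 genes. Only 1557 of these genes carried a symbol, so many of the strongest differences are given by locus code. Another 8730 probe sets were not in the annotation, so a gene called not measured may still be on the array. Lists written by locus code hold only part of their pathway for this reason. Gene families drawn by symbol or synonym lack the members known here by locus code alone. A log2 difference of 1 is a 2-fold difference, and every difference below is hypocotyl minus cotyledon. Across genes, which are not independent, Pearson's r lay between 0.993 and 0.997 for arrays of 1 group, between 0.982 and 0.996 for the 2 harvests of an organ, and between 0.932 and 0.954 for the 2 organs. The first principal component held 79.1% of the variance among the 12 arrays, and the second 8.86%. The number of arrays limits the precision, and the median standard error of an organ difference was 0.0757 on the log2 scale. In whole organs, fewer cells of a type and less RNA per cell cannot be told apart.

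The labels were checked against defining markers of the organs. Of the cotyledon blade markers, 3 were measured, and all 3 were lower in hypocotyl. RCA, which encodes Rubisco activase, was at 13.22, 13.26 and 13.43 (lowest, median and highest) in the 6 hypocotyl arrays, against 13.66, 13.75 and 13.79 in the 6 cotyledon arrays. STOMAGEN, a peptide that mesophyll cells release to raise stomatal number, was at 7.92, 7.96 and 8.10 in hypocotyl, against 8.29, 8.51 and 8.61 in cotyledon. Neither gene's groups overlapped, and both genes were far above their root values, with RCA at a median of 7.92 and STOMAGEN at 3.18 in the 6 root arrays at 20 °C. None of the axis markers (KNAT1, XCP1, XCP2 and the secondary wall cellulose synthases CESA4, CESA7 and CESA8) had a probe set named in the annotation at hand. The hypocotyl label could therefore be checked only by what the cotyledon has more of.

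Markers of neighbouring tissues were read in the same way. The root hair expansins EXPA7 and EXPA18 did not pass the test between the shoot organs. EXPA7 had medians of 4.79 in hypocotyl and 4.78 in cotyledon, against 7.98 in root, and EXPA18 had 5.10 in both shoot organs, against 8.69 in root. PYK10, a beta-glucosidase stored in the endoplasmic reticulum bodies of seedlings, was higher in hypocotyl by 1.04 ± 0.07 (SE), and these were the only 3 root markers measured. Of the shoot apex and trichome markers, CLV3, a stem cell peptide, was at a median of 3.62 in both organs, and UFO, an F-box gene of the shoot meristem, at 4.18 in hypocotyl and 4.10 in cotyledon. TRY, a trichome patterning gene, was lower in hypocotyl by 0.58 on the log2 scale. CLV3 and UFO did not pass the test between the organs, but both were dim in each, so they say little about apex tissue.

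With 12 arrays most genes differed between the organs. By limma with Benjamini-Hochberg adjustment over all genes and a threshold of 0.05, 3896 genes (29.2%) were higher and 4542 (34.0%) were lower in hypocotyl, or 63.2% in either direction. These shares are the background for every count of list members below. The median difference over all genes was -0.06. Many of these differences were small, and at 2-fold or more 686 genes (5.14%) were higher and 710 (5.32%) lower, while 143 and 106 genes differed 4-fold or more. The 6 hypocotyl arrays lay entirely above the 6 cotyledon arrays for 2511 genes (18.8%) and entirely below them for 2367 (17.7%). Lack of overlap was also a condition for the leading genes named below by size, so for them it is no separate result. The array medians were 5.87 to 5.90 in hypocotyl and 5.65 to 5.69 in cotyledon, while the array means were nearly equal, at 5.97 to 5.98 and 5.94 to 5.96. As deposited, 46.2% of the called genes were higher in hypocotyl, and 23.9% were after each array was centred on its own median, which moved every difference down by 0.21. The direction of small positive differences, and of lists with small medians, therefore depends on the scaling. List counts that turned are also given with this median centring and with reference gene centring. In the latter each array is centred on the median of 9 reference genes, and every difference moves down by more. That median was the same gene on all 12 arrays, the one with the largest organ difference of the 9 (0.42, against a list median of 0.13). Reference gene centring is therefore the most extreme of the scalings tried.

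The largest difference of all belonged to a gene of the cotyledon known here only as AT1G23130. It was at 3.64, 3.92 and 4.07 in hypocotyl, against 10.01, 10.30 and 10.38 in cotyledon, a difference of -6.38 ± 0.08 (83.1-fold lower, adjusted p = 3.8e-18). The root value was also low, at a median of 3.55, so this gene was high in the cotyledon alone among the 3 organs. The largest difference in the other direction belonged to AT5G58390, which was at 10.01, 10.29 and 10.38 in hypocotyl, against 4.41, 5.13 and 5.88 in cotyledon, a difference of 5.12 ± 0.17 (34.7-fold higher, adjusted p = 4.9e-13). Its root median was 3.79, which made it high in the hypocotyl alone among the 3 organs.

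**Figure D1:**
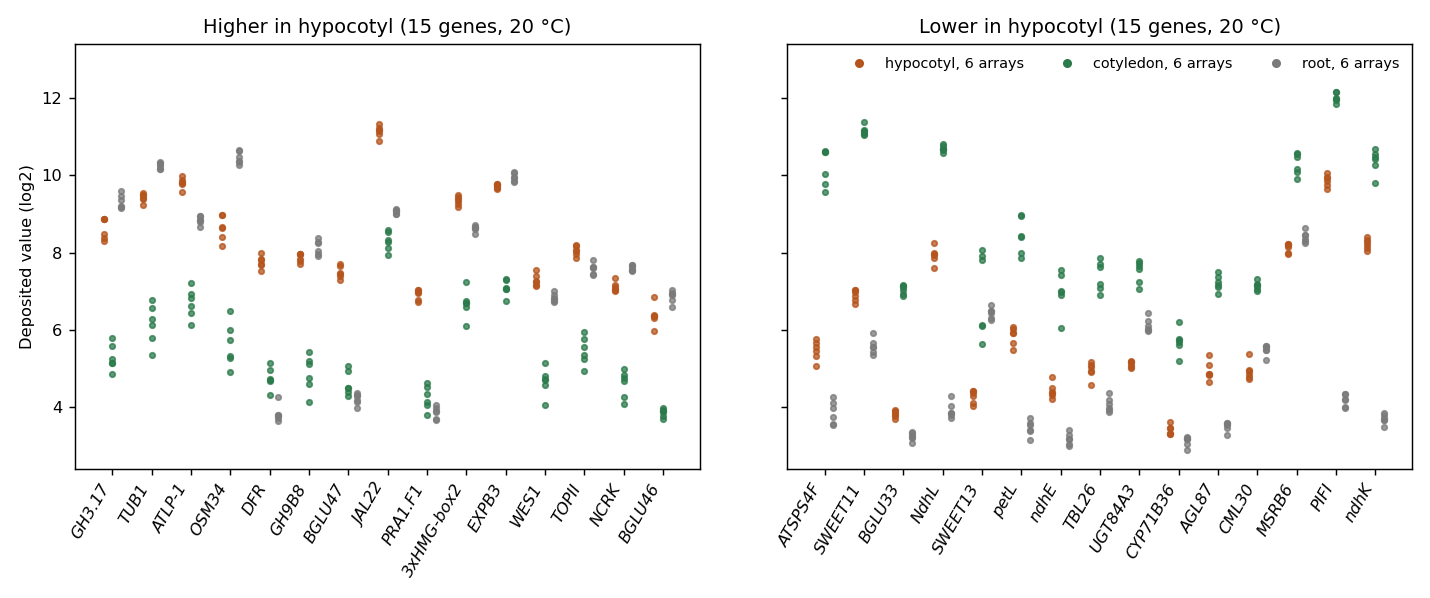
Deposited log2 values of the 15 genes with a symbol that were highest in hypocotyl relative to cotyledon (left) and the 15 that were lowest (right), at 20 °C. Each point is 1 array, for hypocotyl, cotyledon and root (6 arrays each). The 30 genes were chosen so that the hypocotyl points lie apart from the cotyledon points. Root values sit near or above the hypocotyl values for several genes on the left, such as TUB1 and OSM34. They are low for most on the right.

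Most of the measured photosynthesis genes were lower in hypocotyl. Of 90 listed nuclear genes of light harvesting, carbon fixation and photorespiration, 17 were measured. Of these, 16 were lower and 1 higher, with a median of -1.29 beside -0.06 over all genes. LHCB4.3, an antenna protein of photosystem II, was at 8.02, 8.36 and 8.42 in hypocotyl, against 9.75, 10.05 and 10.39 in cotyledon (-1.77 ± 0.11). The groups did not overlap, and root was far lower, at a median of 4.99. Within the list RCA had the smallest decrease, at -0.45 ± 0.05. The gene that was higher was AT2G35120, entered on the list by its locus code, at 9.09 in hypocotyl and 7.57 in cotyledon (medians), against 11.34 in root.

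The measured part of the pigment pathway moved the same way. Of 32 listed genes of chlorophyll and carotenoid synthesis 9 were measured. Of these 9, 8 were lower in hypocotyl and none was higher (median -0.89). LYC, the lycopene cyclase that makes beta-carotene, was lower by 1.73 ± 0.09 on the log2 scale. CHLI2, a subunit of the magnesium chelatase that commits the porphyrin to chlorophyll, was at 8.20, 8.25 and 8.44 in hypocotyl, against 9.44, 9.61 and 9.70 in cotyledon, with no overlap.

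As deposited, genes of the plastid genome split by function, although the direction of the non-photosynthetic group turned with the scaling. These transcripts are made inside the plastid by its own polymerase and by an imported one. Of 37 genes for the photosystems, the cytochrome b6f complex, the ATP synthase, the Rubisco large subunit and the factors that assemble these complexes, 31 were lower in hypocotyl and none higher, with a median of -0.97. petL, a small cytochrome b6f subunit, was at 5.49, 5.92 and 6.07 in hypocotyl, against 7.85, 8.41 and 8.96 in cotyledon (5.98-fold lower). psbA, for the D1 reaction centre protein of photosystem II, was at 8.39, 8.66 and 8.97 in hypocotyl, against 9.90, 10.31 and 10.52 in cotyledon (3.07-fold lower). In both genes every hypocotyl array was below every cotyledon array. psbD, for the D2 protein, differed by -1.93 ± 0.15, atpF, for a stalk subunit of the ATP synthase, by -1.88 ± 0.14, and rbcL by -1.03 ± 0.10. The 6 genes of the list that did not pass were psbZ, psbK, psbM, atpB, atpE and petB.

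The 22 plastid genes for ribosomal proteins, RNA polymerase and other non-photosynthetic functions depended on the scaling. As deposited 7 were higher and 5 lower in hypocotyl (median 0.16), or 31.8% and 22.7%, beside 29.2% and 34.0% of all genes. With median centring 1 was higher and 8 were lower (median -0.05), and with reference gene centring none was higher and 12 were lower (median -0.25). accD, for a subunit of the acetyl-CoA carboxylase of fatty acid synthesis, was the lowest, at 6.64, 6.74 and 7.11 in hypocotyl, against 7.62, 8.28 and 8.38 in cotyledon. The number higher was 4 without hypocotyl replicate 2 at 3 h, and also 4 without cotyledon replicate 1 or replicate 2 at 3 h. In the 24 h arrays alone 1 was higher and 8 were lower.

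The lowest median among the photosynthesis lists belonged to the chloroplast NDH complex, which drives cyclic electron flow around photosystem I and is built from plastid and nuclear genes. Of 20 genes for its subunits and the factors of its assembly and RNA editing, 18 were lower in hypocotyl, none was higher, and the median was -1.37. NdhL, a nuclear subunit, was at 7.60, 7.95 and 8.23 in hypocotyl, against 10.58, 10.68 and 10.80 in cotyledon (-2.76 ± 0.08, 6.79-fold lower). PIFI, a nuclear factor of chlororespiration, was at 9.66, 9.89 and 10.06 in hypocotyl, against 11.84, 11.98 and 12.17 in cotyledon. Neither gene's groups overlapped, and in root they had medians of 3.85 and 4.19. The plastid subunit genes ndhE and ndhK differed by -2.56 ± 0.19 and -2.14 ± 0.12, and the nuclear factor CRR42 by -2.10. The 2 that did not pass were ndhC and ndhI, both plastid genes.

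**Figure D2:**
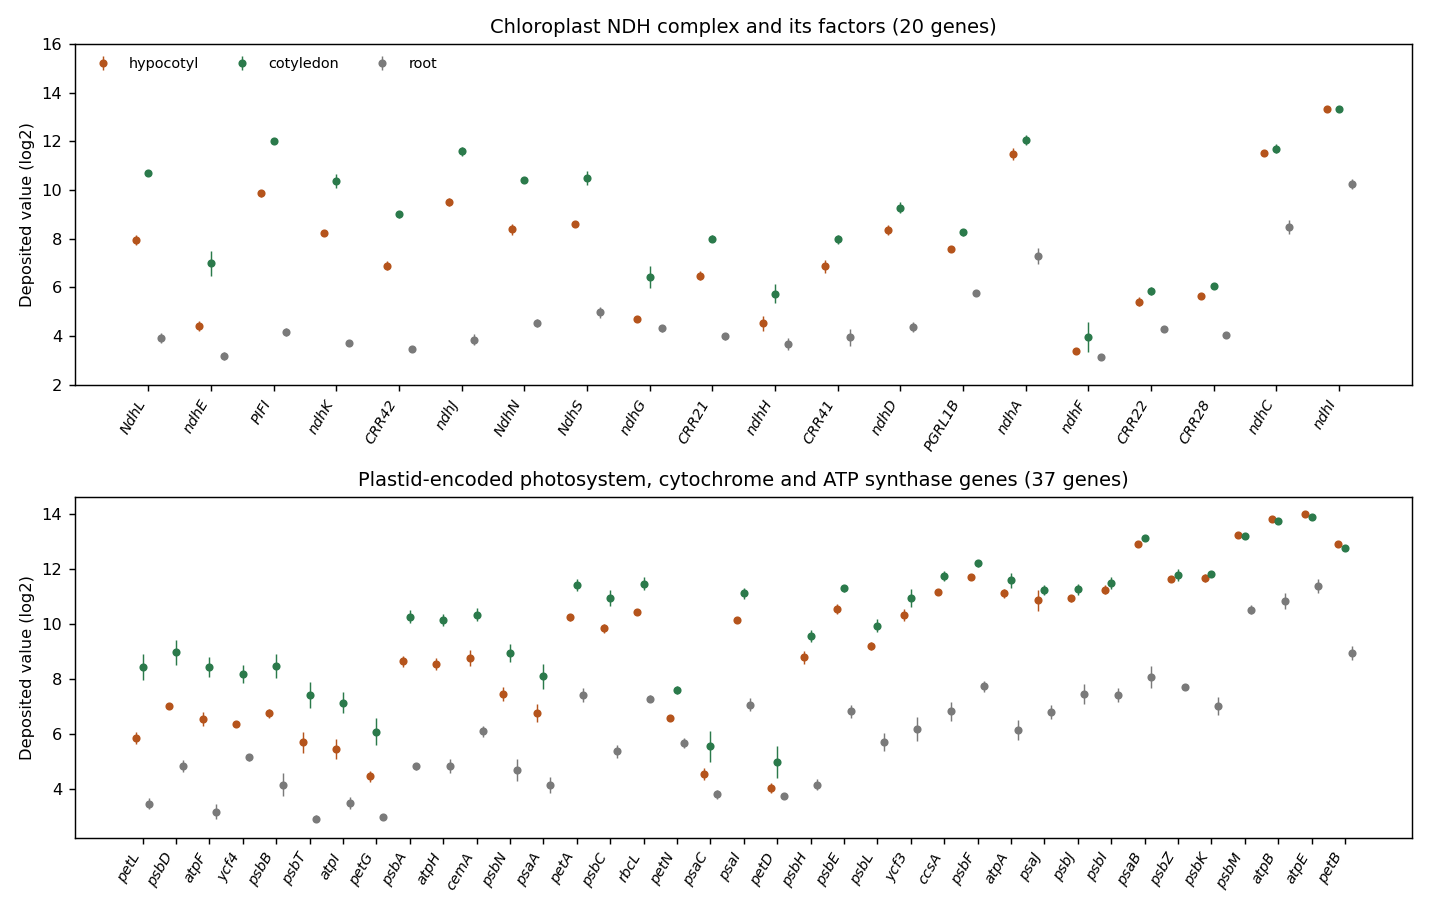
Mean deposited log2 value and SD (6 arrays for each organ) in hypocotyl, cotyledon and root at 20 °C, for 20 genes of the chloroplast NDH complex and its factors (top) and 37 plastid-encoded photosynthesis genes (bottom), ordered by organ difference. Hypocotyl means lie below cotyledon means for the genes on the left, such as NdhL and petL, and close to them for those on the right, such as ndhI and petB, while root means are lower.

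Sucrose synthesis and export gave the largest differences among genes with a symbol. ATSPS4F, a sucrose phosphate synthase, was at 5.07, 5.50 and 5.75 in hypocotyl, against 9.55, 10.31 and 10.62 in cotyledon (-4.73 ± 0.14, 26.5-fold lower, adjusted p = 1.7e-13). SWEET11, a sucrose efflux carrier that feeds the phloem in leaves, was at 6.68, 6.93 and 7.04 in hypocotyl, against 11.03, 11.13 and 11.39 in cotyledon (19.2-fold lower). Both were far apart in every array, and both were lower still in root, at medians of 3.87 and 5.55. SWEET13, of the same clade, was at 4.03, 4.32 and 4.40 in hypocotyl, against 5.64, 6.97 and 8.05 in cotyledon, and its wide cotyledon range followed the harvest time.

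The sugar carriers as a family did not all go this way. Of 18 SWEET and tonoplast sugar transporters, 8 were lower in hypocotyl and 3 higher, with a median of -0.21, and 15 were lower and 3 higher with either median or reference gene centring. The 3 that were higher encode carriers known from the vacuolar membrane. SWEET17, a fructose carrier, was at 8.27, 8.40 and 8.63 in hypocotyl, against 7.06, 7.35 and 7.54 in cotyledon, with no overlap. TMT1, which loads monosaccharides into the vacuole, differed by 0.97 ± 0.15, and SWEET16 by 0.82 ± 0.10. The plasma membrane carrier SWEET4 and the vacuolar carrier SWEET2 were lower, by 1.32 and 1.27 on the log2 scale. Of 23 listed genes of starch and sucrose metabolism 4 were measured. All 4 were lower in hypocotyl (median -1.14), ATSPS4F among them. The other 3 act on starch, and SBE2.2, a branching enzyme, differed by -1.21 ± 0.06, PWD, a glucan kinase of starch breakdown, by -1.06 ± 0.10, and DPE1, a disproportionating enzyme, by -0.63 ± 0.08.

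Stomatal and blade genes were mixed, and the stages of the stomatal lineage went in opposite directions. SPCH, the bHLH factor that starts the lineage, was at 5.89, 6.70 and 7.07 in hypocotyl, against 4.63, 5.06 and 5.17 in cotyledon (1.59 ± 0.15). FMA, the bHLH factor of the last step to guard cells, was at 4.68, 4.96 and 5.15 in hypocotyl, against 5.91, 6.18 and 6.54 in cotyledon (-1.26 ± 0.09). Neither pair of groups overlapped, so hypocotyl was higher for the early gene and lower for the late gene. MUTE, between them in the lineage, had medians of 4.13 and 4.24 and did not pass the test. AT1G22690, entered as a guard cell marker by its locus code, was at 7.91, 8.08 and 8.36 in hypocotyl, against 10.90, 11.08 and 11.20 in cotyledon (7.72-fold lower).

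Among regulators of organ shape, 5 of 11 were higher and 4 lower in hypocotyl, and 3 and 5 with reference gene centring. As deposited that is 45.5% and 36.4%, beside 29.2% and 34.0% of all genes. Of the NGATHA genes, B3 factors of leaf margin growth, NGA1, NGA2 and NGA4 were lower and NGA3 did not pass. NGA1 was at 4.70, 4.86 and 5.21 in hypocotyl, against 6.03, 6.14 and 6.49 in cotyledon, and NGA2 and NGA4 differed by -0.87 and -0.57. YAB5, a YABBY factor of the lower leaf side, differed by -0.86 ± 0.07. SPT, a bHLH factor that restrains cotyledon expansion, was higher in hypocotyl by 1.25 ± 0.07, and PHV, an HD-ZIP III factor of the upper leaf side and of vascular tissue, by 1.23 ± 0.07. TCP15, a factor of cell proliferation, was higher by 0.85.

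Other genes with a symbol that were lowest in hypocotyl came from several families. BGLU33, a beta-glucosidase, was at 3.70, 3.82 and 3.93 in hypocotyl, against 6.88, 7.07 and 7.16 in cotyledon (9.36-fold lower). TBL26, of the family that acetylates wall polymers, differed by -2.44 ± 0.12. UGT84A3, which glucosylates hydroxycinnamic acids, differed by -2.40 ± 0.10, and CYP71B36, a cytochrome P450, by -2.29 ± 0.11. The MADS-box gene AGL87, the calmodulin-like gene CML30 and the methionine sulfoxide reductase gene MSRB6 differed by -2.28, -2.21 and -2.17. Each of these genes was picked among those with no overlap between the 6 hypocotyl and the 6 cotyledon arrays. Of the 10 largest differences of any gene in this direction, 8 carried only a locus code, and after AT1G23130 they were AT5G18600 (29.1-fold), AT2G47880 (18.6-fold), AT1G64370 (-4.17 on the log2 scale), AT3G51750, AT3G16670, AT4G00780 and AT3G22060 (12.8-fold to 15.2-fold).

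Turning to what the hypocotyl had more of, 1 auxin-conjugating enzyme, GH3.17, led the genes with a symbol, and another, WES1, ranked 12. GH3.17, an enzyme that joins auxin to amino acids, was at 8.30, 8.67 and 8.88 in hypocotyl, against 4.85, 5.20 and 5.79 in cotyledon (3.34 ± 0.08, 10.1-fold higher, adjusted p = 3.0e-14). WES1, another GH3 enzyme, was at 7.13, 7.25 and 7.55 in hypocotyl, against 4.06, 4.71 and 5.14 in cotyledon, and GH3.3 was at 6.41, 6.62 and 6.76, against 4.01, 4.31 and 4.79. The 3 genes were apart in every array. They did not stand for the whole of the Aux/IAA and GH3 list. Of its 12 genes 4 were higher and 5 lower in hypocotyl (median -0.13), and 3 and 8 with median or reference gene centring. The shares as deposited were 33.3% and 41.7%, beside 29.2% and 34.0% of all genes. IAA18, a repressor of auxin response, was lower by 0.92 on the log2 scale, and GH3.9 by 0.89.

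Some cytoskeleton genes were far higher in hypocotyl. TUB1, a beta-tubulin, was at 9.22, 9.45 and 9.54 in hypocotyl, against 5.34, 6.20 and 6.76 in cotyledon (9.76-fold higher), and root was higher again at a median of 10.27. TUB7 differed by 1.28 ± 0.08, and of 7 tubulin genes 4 were higher and 1 lower as deposited, and 3 and 3 with reference gene centring. Of 10 members of the NET family, which ties actin to membranes, 8 were higher and none lower (median 0.63), or 5 and 2 with reference gene centring (median 0.21), with NET1A at 6.77, 6.96 and 7.08 in hypocotyl, against 4.58, 4.69 and 4.97 in cotyledon. Of 29 IQD and TRM genes, whose proteins sit on microtubules, 16 were higher and 5 lower as deposited (median 0.36), 13 and 11 with median centring, and 9 and 13 with reference gene centring (median -0.06). IQD26 was the highest of these (1.44 ± 0.10) and IQD24 the lowest (-1.46 ± 0.07). The 5 lower became 3 without hypocotyl replicate 1, cotyledon replicate 1 or cotyledon replicate 2 at 3 h.

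Wall loosening enzymes went both ways, with the larger sizes on the hypocotyl side. EXPB3, a beta-expansin, was at 9.63, 9.74 and 9.78 in hypocotyl, against 6.75, 7.07 and 7.31 in cotyledon (6.20-fold higher). EXPA4, an alpha-expansin, was at 8.67, 8.96 and 9.03 in hypocotyl, against 6.70, 6.94 and 7.10 in cotyledon, and EXPA15, another, differed by 1.88 ± 0.07. In the other direction EXPA9 differed by -1.52 ± 0.12 and the expansin-like gene EXLA1 by -1.23 ± 0.10. Of all 16 expansin genes 7 were higher and 4 lower as deposited (median 0.02). These shares of 43.8% and 25.0% stand beside 29.2% and 34.0% of all genes. With median centring 4 were higher and 7 lower (median -0.19), and with reference gene centring 4 and 9 (median -0.39). Of 10 xyloglucan endotransglucosylase/hydrolases, which cut and rejoin xyloglucan chains, 5 were higher and 1 lower. XTH19 was at 6.33, 6.80 and 6.91 in hypocotyl, against 3.78, 4.27 and 5.08 in cotyledon, XTH20 differed by 2.19 ± 0.08 and XTH32 by 1.75 ± 0.11. The 1 lower was EXGT-A3, at -1.50 ± 0.06. With median centring 5 were higher and 5 lower, and with reference gene centring 4 and 5, where the list median of 0.26 became -0.15.

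Among 15 cellulases of family GH9, 6 were higher and 5 lower as deposited (median -0.06), 5 and 9 with median centring, and 4 and 9 with reference gene centring. GH9B8 was at 7.70, 7.90 and 7.96 in hypocotyl, against 4.12, 4.94 and 5.42 in cotyledon (8.01-fold higher). GH9B13 and GH9C2 differed by 2.10 ± 0.08 and 1.75 ± 0.09, and each was apart in all arrays. Of 22 TBL genes of wall acetylation 12 were higher and 6 lower as deposited (median 0.31), 10 and 9 with median centring, and 5 and 10 with reference gene centring (median -0.11). TBL36 differed by 2.22 ± 0.09 and TBL39 by 1.94 ± 0.08.

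Cell division genes were higher in hypocotyl almost without exception. Of 19 genes of mitosis and chromosomes 18 were higher and none lower, with a median of 1.41, and the median stayed between 0.99 and 1.41 under the scalings tried. TOPII, the topoisomerase that untangles sister chromosomes, was at 7.87, 8.05 and 8.19 in hypocotyl, against 4.93, 5.45 and 5.93 in cotyledon (6.01-fold higher). 3xHMG-box2, a chromatin protein of dividing cells, was at 9.18, 9.35 and 9.49 in hypocotyl, against 6.10, 6.69 and 7.24 in cotyledon. Both were apart in every array.

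The division kinases followed. AUR1 and AUR2, Aurora kinases of the spindle, differed by 2.30 ± 0.11 and 2.16 ± 0.15, KINESIN-12B, a motor of the cell plate, by 2.13 ± 0.14, and UBC20, a ubiquitin carrier of the mitotic cycle, by 2.18 ± 0.11. UBC19, its close relative, had medians of 8.33 in hypocotyl and 8.42 in cotyledon and did not pass. HTR12, the histone H3 of the centromere, was higher by 1.41 ± 0.07, and BUB3.1, of the spindle checkpoint, by 1.33 ± 0.07. SIM, an inhibitor of cyclin-dependent kinases that favours endoreduplication over division, was also higher, at 7.24, 7.39 and 7.71 in hypocotyl, against 4.83, 5.10 and 5.24 in cotyledon. Of 51 genes on a further cell cycle list 7 were measured and all 7 were higher. It shares TOPII and the Aurora genes with the list above and includes the inhibitor SIM, so it is no separate count of division genes. Beside these values stand the apex markers CLV3 and UFO, neither of which passed the test between organs, and SPCH, higher in hypocotyl. CLV3 and UFO were dim in both organs, where values ran down to 2.51, so they say little about stem tip tissue. How far stem tip, vascular or stomatal lineage cells carried the division genes was not tested.

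Anthocyanin and flavonol genes were mostly higher in hypocotyl. Of 26 listed genes 9 were measured, with 7 higher and 1 lower (median 1.43). DFR, the reductase at the entry to anthocyanins, was at 7.52, 7.75 and 7.99 in hypocotyl, against 4.30, 4.70 and 5.13 in cotyledon (3.01 ± 0.12, 8.04-fold higher, adjusted p = 2.5e-12). Root was lower than both, at a median of 3.78. The enzymes that decorate the pigment went with it, with AT4G14090, entered as a flavonoid gene by its locus code, at 2.04 ± 0.13, the xylosyltransferase UF3GT at 1.52 ± 0.13 and the malonyltransferase AT5MAT at 1.47 ± 0.12. UGT78D1, which adds rhamnose to flavonols, was at 8.66, 8.90 and 9.02 in hypocotyl, against 7.10, 7.54 and 7.57 in cotyledon. CHIL, a chalcone isomerase-like protein, differed by 1.23. BAN, the reductase of seed coat tannins, was the 1 lower, by 0.36 on the log2 scale and at medians of 3.80 and 4.14.

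Glucosinolate genes were split, with 4 of 7 higher and 3 lower, and 2 and 3 with reference gene centring. BCAT4, which starts methionine chain elongation, was at 10.78, 11.08 and 11.25 in hypocotyl, against 8.74, 9.21 and 9.61 in cotyledon (3.57-fold higher). GSTU20, a glutathione transferase, differed by 1.38 ± 0.07. GTR2, a glucosinolate importer of the phloem, was lower, at 6.55, 6.75 and 7.05 in hypocotyl, against 7.76, 7.83 and 8.11 in cotyledon. LHW, a bHLH factor that sets the number of vascular cell files, was higher by 1.14 ± 0.10.

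The other leading genes with a symbol in this direction were of several kinds. ATLP-1 and OSM34, proteins of the thaumatin and osmotin family, were 8.73-fold and 8.13-fold higher, and OSM34 ranged widely in cotyledon, at 4.91, 5.52 and 6.48, against 8.17, 8.65 and 8.97 in hypocotyl. BGLU47 and BGLU46, beta-glucosidases, were 7.36-fold and 5.72-fold higher. JAL22, a jacalin-like lectin, was at 10.90, 11.17 and 11.33 in hypocotyl, against 7.93, 8.31 and 8.59 in cotyledon. PRA1.F1, of a family of membrane traffic proteins, and NCRK, a receptor-like kinase, were 6.39-fold and 5.75-fold higher. They, too, were picked among genes with no overlap of arrays. The 10 largest differences of any gene in this direction all carried only a locus code, and after AT5G58390 they were AT2G33850 (24.2-fold), AT4G11190 (22.2-fold), AT4G38080 (20.2-fold), AT2G37130 (19.5-fold), AT3G45160, AT5G38020, AT5G05960, AT2G14900 and AT2G23540 (12.4-fold to 14.8-fold).

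**Figure D3:**
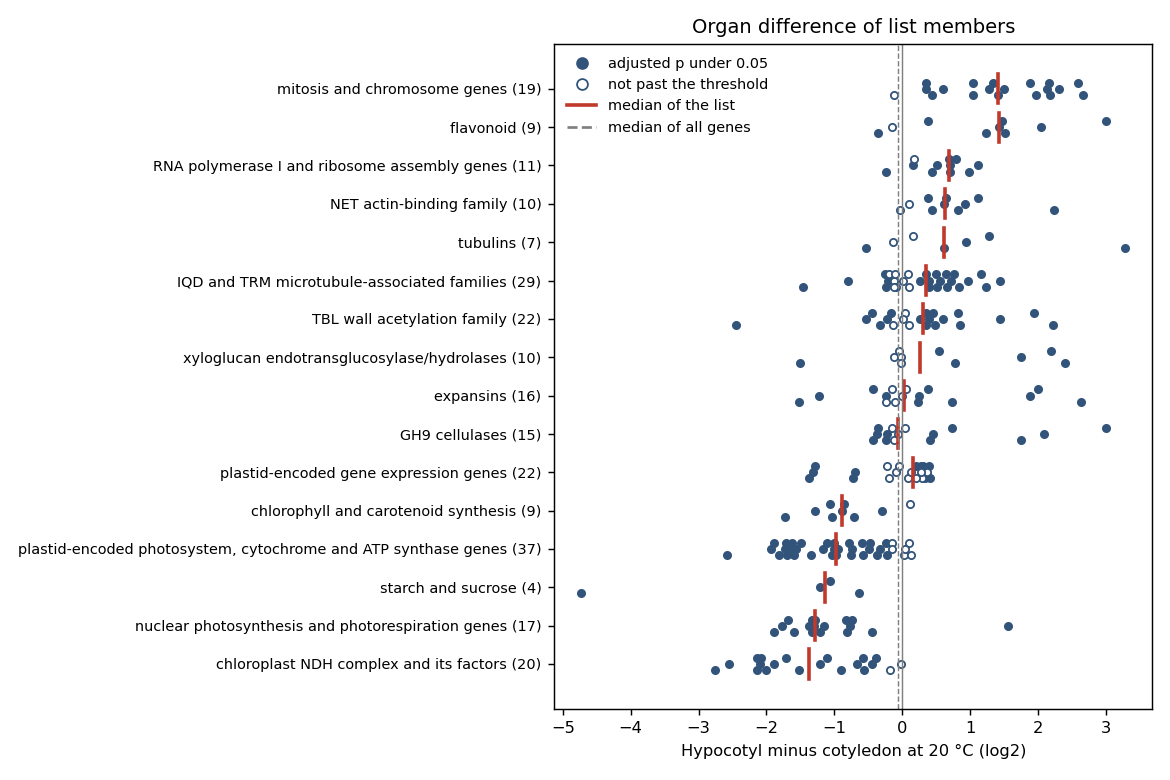
Organ difference (hypocotyl minus cotyledon at 20 °C, log2) of each measured member of 16 gene lists, with the number of members in brackets. Filled points passed the adjusted threshold of 0.05 and open points did not, the red bar is the list median and the dashed line the median of all genes (-0.06). Mitosis and flavonoid genes lie to the right, photosynthesis and NDH genes to the left, and the wall families spread to both sides. Values are as deposited, and counts of the wall, tubulin, IQD and TRM, and plastid gene expression lists turn with the scaling.

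The root arrays at 20 °C show where these genes stand in the third organ, as a description, since the genes were chosen on the shoot arrays. Of the 686 genes at least 2-fold higher in hypocotyl, the root mean lay above both shoot organs in 378 (55.1%), between them in 229 (33.4%) and below both in 79 (11.5%). Of the 710 genes at least 2-fold lower in hypocotyl, root lay above both in 37 (5.21%), between in 104 (14.6%) and below both in 569 (80.1%). Over all genes the shares were 39.4%, 23.6% and 37.0%. The wall genes XTH19 and TBL39 had root medians of 9.91 and 9.78, both above hypocotyl. DFR, BGLU47, PRA1.F1 and AT5G58390 were exceptions, with root medians of 3.78, 4.24, 3.88 and 3.79, below hypocotyl in all arrays. EXPA9, the alpha-expansin that was lower in hypocotyl, had a root median of 8.79, above both shoot organs.

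The same contrast was made in 12 other arrays, those of hypocotyl and cotyledon at 28 °C. There 7071 genes (52.9%) passed the test, 3536 higher and 3535 lower in hypocotyl. At both temperatures 6050 genes passed with the same sign and 41 with opposite signs. Of the 686 genes at least 2-fold higher at 20 °C, 685 passed with the same sign at 28 °C and 490 (71.4%) were again at least 2-fold higher, which is 86.0% of the 570 genes with that size at 28 °C. Of the 710 at least 2-fold lower, 694 passed with the same sign and 520 (73.2%) were again at least 2-fold lower, or 86.4% of 602. Whether a difference itself differed between temperatures was not tested here.

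The leading genes given here had the same direction at 28 °C. AT1G23130 differed by -6.56, ATSPS4F by -4.51 and SWEET11 by -4.26. GH3.17 differed by 2.97, TUB1 by 3.82 and DFR by 2.05 at 28 °C, against 3.34, 3.29 and 3.01 at 20 °C. AUR2 differed by 0.93 at 28 °C and 2.16 at 20 °C.

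**Figure D4:**
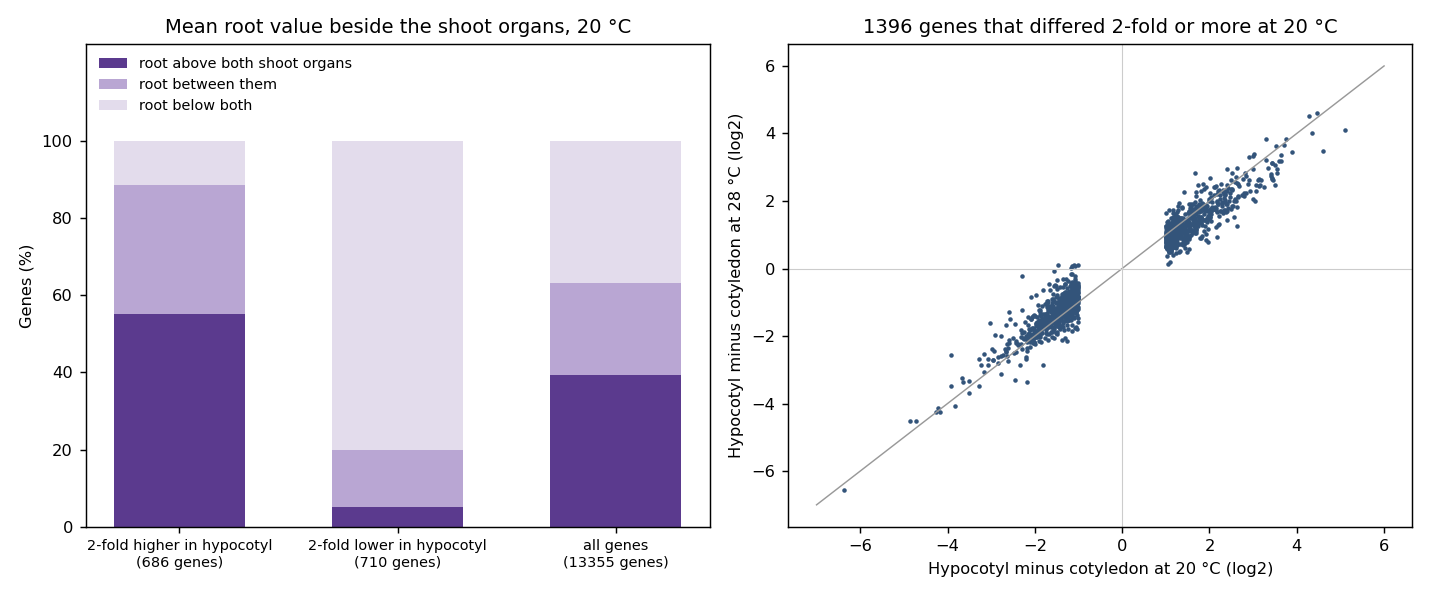
Left, percentage of genes whose mean root value at 20 °C lay above both shoot organs, between them or below both, for the 686 genes at least 2-fold higher and the 710 at least 2-fold lower in hypocotyl and for all 13355 genes. Right, organ difference at 28 °C against that at 20 °C (both log2, hypocotyl minus cotyledon) for the 1396 genes at least 2-fold apart at 20 °C. The diagonal marks equal values. The genes were chosen for their size at 20 °C, and 490 of the 686 and 520 of the 710 were again at least 2-fold apart at 28 °C. Of the 1396 genes 6, all lower at 20 °C, had the opposite sign at 28 °C.

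The organ difference was itself compared between the harvests. It passed the test (limma, adjusted p under 0.05) for 461 genes (3.45%), more positive at 24 h for 300 (2.25%) and more negative for 161 (1.21%). In 438 of the 461 the larger change was in the cotyledon and in 23 in the hypocotyl. The cotyledon at 24 h differed from the cotyledon at 3 h in 2138 genes and the hypocotyl in 181. The count rested partly on single arrays. Without hypocotyl replicate 3 at 3 h it was 303, with 190 more positive, and without hypocotyl replicate 2 at 3 h 107 were more negative.

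RNA polymerase I and ribosome assembly genes were 9 of 11 higher in hypocotyl and 1 lower (median 0.69), and for 6 of the 11 the difference was more positive at 24 h. With reference gene centring 5 were higher and 3 lower. NRPA1, the largest subunit of the polymerase that makes ribosomal RNA, was at 7.02, 6.91 and 7.12 in hypocotyl at 24 h and 7.31, 7.31 and 7.21 at 3 h, against 5.61, 5.48 and 5.35 in cotyledon at 24 h and 6.60, 6.91 and 7.07 at 3 h. The cotyledon arrays at 24 h lay below all others, and the hypocotyl's own change did not pass the test. NRPA2, the other large subunit, had means of 8.23 and 8.47 in hypocotyl at 24 h and 3 h, and of 6.86 and 8.25 in cotyledon, a change in the organ difference of 1.15 ± 0.13 (limma, adjusted p = 0.00021). AT5G14520, annotated as the ribosome biogenesis gene PES, had means of 10.22 and 10.40 in hypocotyl and 8.73 and 9.66 in cotyledon, also at 24 h and 3 h.

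Other genes changed sign or size between the harvests. COR27, a cold- and clock-regulated gene, had means of 4.58 in hypocotyl at 24 h and 7.56 at 3 h, against 4.47 in cotyledon at 24 h and 8.89 at 3 h. It was lower at 24 h in both organs, did not pass the test between organs at 24 h and was lower in hypocotyl at 3 h. SWEET13 was at 4.40, 4.29 and 4.35 in hypocotyl at 24 h and 4.40, 4.11 and 4.03 at 3 h, against 7.91, 7.80 and 8.05 in cotyledon at 24 h and 6.08, 6.14 and 5.64 at 3 h. Its rise at 24 h passed the test in cotyledon and did not in hypocotyl (limma, adjusted p = 0.63). ARD4, an acireductone dioxygenase of methionine recycling, had an organ difference of -1.31 at 24 h and 0.04 at 3 h. For AT5G48490 the difference was -1.48 at 24 h and 0.85 at 3 h, and its change from 3 h to 24 h was 1.34 in hypocotyl and 3.67 in cotyledon. In 133 of the 461 genes the sign of the difference was opposite at the 2 harvests, and in 36 of these it passed the test at both.

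**Figure D5:**
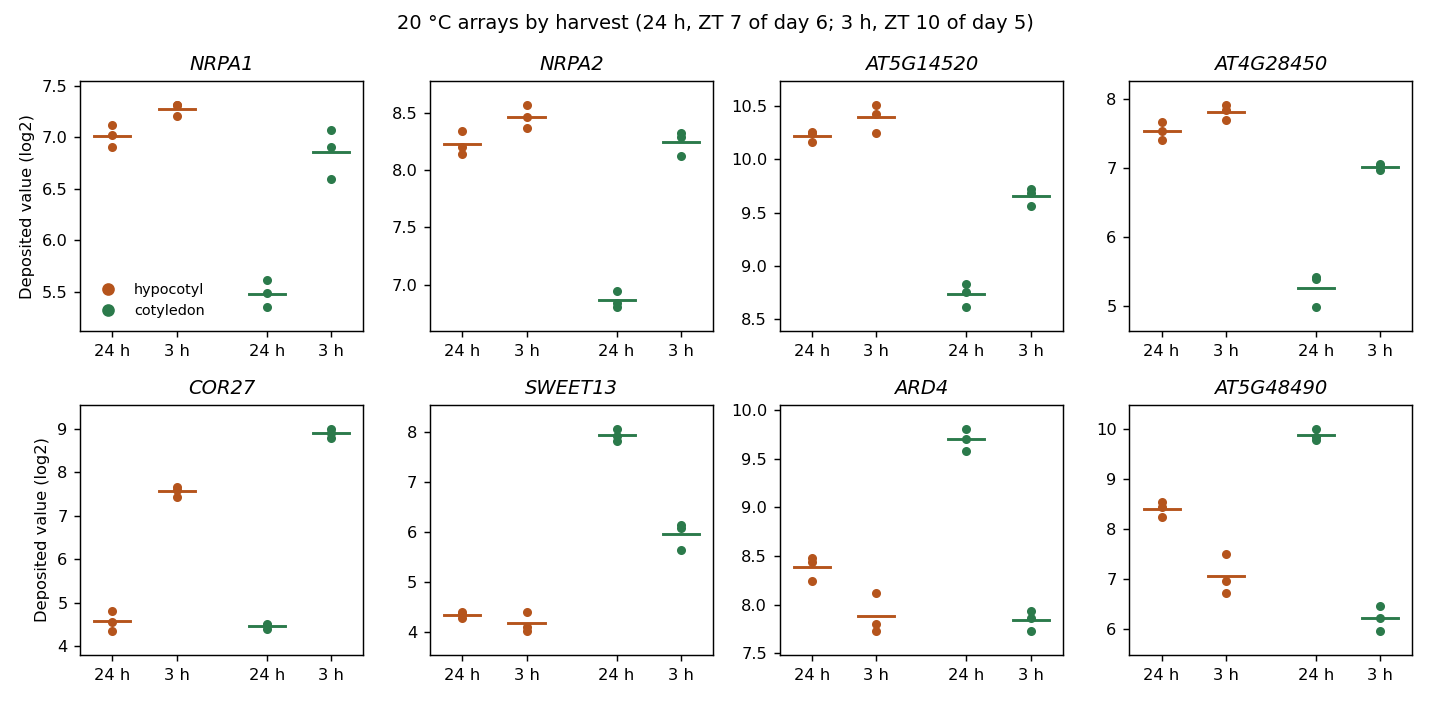
Deposited log2 values of 8 genes in hypocotyl and cotyledon at 20 °C at the 2 harvests, 24 h (ZT 7 of day 6) and 3 h (ZT 10 of day 5). Points are arrays (3 per group) and bars are group means; NRPA1, NRPA2, AT5G14520 and AT4G28450 are lower in cotyledon at 24 h than at 3 h with smaller steps in hypocotyl, and SWEET13 is higher in cotyledon at 24 h.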

How the data were processed

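Total RNA from dissected organs was labelled with biotin and hybridised to Affymetrix ATH1 arrays. The deposited log2 values were made by the authors with RMA, a method that scales arrays to a common distribution and summarises probes, and limma is also named, per the submitters' processing notes, which give no versions. Which arrays were normalized together is not given in the sources used here. Of 22746 probe sets, 8730 were not in the annotation and 503 carried several genes, and these were not named. A gene with several probe sets (147 genes) was read from the brightest, by its mean of the 35 arrays, and 283 genes rested on probe sets that may cross-hybridise. Names came from the array annotation and RefSeq TAIR10.1, which matched 13285 of 13355 genes.

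Organ differences were fitted on these values with limma 3.58.1 (R 4.3.3, lmFit and eBayes, two-sided, 9 residual degrees of freedom) with harvest time as a covariate. The change of the difference between harvests used the 4 group means (8 residual degrees of freedom). p-values were adjusted by Benjamini-Hochberg over all 13355 genes, with a threshold of 0.05. They measure the spread between these pooled samples. The fit was tested on simulated data with 200 of 13355 genes changed. It recovered 89% of organ differences of 0.5 and 100% of those of 1 (log2) with 8 false calls, and 24% and 82% of changes between harvests of those sizes with 6. The simulation had independent noise, no shift between organs, and far fewer changed genes than the 63.2% called here. Its false calls are therefore no guide to the number of errors in these data.

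Named genes were the 15 largest differences in each direction with a symbol and no overlap of arrays, the 10 largest in each direction of any gene, up to 4 called members with the largest difference from each list, and 8 in each direction for the change between harvests. Further list members and markers are named to describe their list. The members and lists were chosen with earlier results of these data known. Alternatives were other models, a replicate block, single harvests, 3 other scalings, a filter on dim genes, other probe set rules, and leaving out each array. A planned search for promoter motifs was not run, as no sequences were used here.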

Additional observations from a re-analysis of the deposited data

Results flagged for a closer look

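The organ difference at 20 °C differed between the 24 h and the 3 h harvest for 461 genes by the test of that change itself (limma, Benjamini-Hochberg). Groups of 3 arrays are too small to be screened for an outlying array. Among the 574 named genes and list members, 45 passed, with adjusted p between 0.00019 and 0.043, and in 42 of them the larger change was in the cotyledon. The values below are the hypocotyl minus cotyledon difference at 24 h minus that at 3 h, on the log2 scale.

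It was more negative at 24 h for 22 of these genes. The locus codes among them were AT5G48490 (-2.33), AT1G63580 (-1.46), AT4G33666 (-1.44), AT2G15020 (-1.39), AT2G20670 (-1.35), AT4G19820 (-1.33) and AT3G22060 (-0.76). The sugar carriers SWEET13 and SWEET2 had -1.80 and -0.84. The growth and wall genes EXPB1, XTH32 and TRM19 had -1.25, -0.69 and -0.51, and GH3.9 had -0.76. ARD4 had -1.35 and the beta-glucosidase BGLU40 had -0.99. SPCH and TRY, of stomata and trichomes, had -0.90 and -0.86. The photosynthesis genes LHCB4.3 and NdhS had -0.74 and -0.51, the light signalling factor HYH had -0.71, and the cytochrome P450 genes CYP71B35 and CYP71B26 had -0.79 and -0.55.

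It was more positive at 24 h for 23. The 6 of RNA polymerase I and ribosome assembly were NRPA2 (1.15), NRPA1 (1.12), RRP41L (0.83), AT5G14520 (0.75), YAO (0.68) and IMP4 (0.61). The locus codes were AT1G17665 (1.79), AT4G28450 (1.48), AT1G08610 (1.47), AT4G33980 (1.39), AT3G06530 (1.38), AT4G26600 (1.28) and AT1G17090 (1.25). COR27 had 1.44 and the vacuolar carrier TMT1 had 1.11. The DNA polymerase gene ICU2 had 0.78, the tubulin gene TUB9 and the microtubule gene IQD22 had 0.68 each, the starch gene PWD had 0.64 and the glucosinolate gene BCAT4 had 0.48. The glycosyltransferase genes UGT71B1 and UGT72E3 had 0.78 and 0.58, and the carboxypeptidase gene SCPL49 had 0.77.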

How the results depend on the processing

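Scaling decided the balance of directions. Against 3896 genes higher and 4542 lower in hypocotyl as deposited, 2556 and 8155 were called with arrays centred on their median, and 1565 and 9711 with arrays centred on the median of 9 reference genes (4 of them higher and none lower as deposited), where the median of all genes was -0.48. That median fell on 1 gene, AT2G32170, on 12 of 12 arrays, and this gene had the largest organ difference of the 9, at 0.42 as deposited. Centring on the mean of the reference genes, chosen after seeing the data, gave 3107 and 6491. The shares of called genes that were higher were 46.2%, 23.9%, 13.9% and 32.4%. Centring on the mean moved the lists less than centring on the median reference gene. Higher and lower were then 8 and 0 for the NET family, 15 and 9 for IQD and TRM, and 12 and 7 for TBL. They were 4 and 2 for tubulins, 5 and 2 for the xyloglucan enzymes, 5 and 5 for expansins, and 6 and 8 for GH9 cellulases. The plastid gene expression list had 3 and 6. At 2-fold or more the counts were 454 higher with median centring, and 309 higher and 1402 lower with the reference gene. Some small differences reversed with the reference gene, namely CSLC04 (-0.028), YAB3 (-0.019), WSD1 (-0.12), CLE44 (-0.17), TET7 (-0.042), AT5G46630 (-0.25), GAPC2 (-0.25) and PEX4 (-0.26), the last 3 also with median centring (-0.044, -0.047 and -0.060). These follow from the shift itself.

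With all 22746 probe sets in place of 13355 genes, 15020 were called, 7381 higher and 7639 lower. At 2-fold or more there were 2703 (1416 and 1287), and by harvest 967 (566 more positive, 401 more negative). More probe sets than genes were tested, so these counts cannot be set directly against the gene counts. What else raised them was not tested. The genes more negative at 24 h were 252 with all 35 arrays, 243 with trend and robust fitting, and 104 with the reference gene, and the cause was not tested. Leaving out each array gave 7884 to 8246 genes called, 1356 to 1443 at 2-fold or more, 303 to 560 by harvest, of them 190 to 338 more positive and 107 to 222 more negative, and 6640 to 6931 at 28 °C. The lowest values by harvest came without hypocotyl replicate 3 (303 and 190) or replicate 2 (107) at 3 h. Lower genes became 2 in place of 1 for the flavonoid list without cotyledon replicate 1 at 3 h or replicate 3 at 24 h, for the tubulins without hypocotyl replicate 3 at 24 h or cotyledon replicate 3 at 3 h, and for the peroxidases without hypocotyl replicate 1 or 3 or cotyledon replicate 1 or 2 at 24 h. Of the values for 175 named genes, 1871 kept direction and call over 11 settings and 38 lost the call, and 2093 and 7 did with an array left out. With replicate number as a block 8299 genes were called, 3848 higher and 4451 lower, and 422 by harvest. The numbers are not said to pair the arrays. The deviations of 18 same-number pairs correlated at -0.12 to 0.27, and 5 of 12 arrays matched best with their own number. With 3 arrays per group these values cannot decide whether the arrays were paired. Values ran down to 2.51, and near that floor a dim gene can show little further decrease.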

Other observations

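The enzyme families of secondary metabolism were drawn by symbol or synonym, so members known here by locus code alone are missing. Among them, the cytochrome P450 genes found in this way were mostly lower in hypocotyl, but at 2-fold or more only 1 was lower and 1 higher. Of 24, 2 were higher and 15 lower as deposited (median -0.24), against 29.2% and 34.0% of all genes, 2 and 20 with arrays centred on their median, and 1 and 22 when centred on the median reference gene. In the 24 h arrays alone 8 were lower. CYP71B37 was the highest, at 1.59 ± 0.10 (SE, limma), and its family member CYP71B36 was the lowest, at -2.29 ± 0.11. Of 49 UDP-glycosyltransferase genes 9 were higher and 19 lower as deposited (median -0.15), 8 and 34 with median centring, and 7 and 40 with reference gene centring. UGT72E2, which glucosylates lignin precursors, was higher by 1.87 ± 0.13, while UGT73C1 and UGT76E11 both differed by -1.83. Of 11 tau glutathione transferases 6 were higher and 2 lower as deposited (median 0.26), and 4 and 5 with reference gene centring (median -0.15). GSTU22 was 4.58-fold higher and GSTU25 differed by 1.97 ± 0.16, and GSTU18 by -1.36 ± 0.07.

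Several families of secreted and defence proteins had members far apart in both directions, with counts that turned with the scaling. These families were drawn by symbol or synonym, so members known here by locus code alone are missing from the counts. Of 7 class III peroxidases found in this way, enzymes that cross-link or loosen walls, 3 were higher and 1 lower in hypocotyl as deposited. With median or reference gene centring 3 were higher and 3 lower. AT5G66390, annotated as PRX72, differed by 2.46 ± 0.09, and AT5G64120, annotated as PRX71, by -2.43 ± 0.07. Of 22 beta-glucosidases 9 were higher and 4 lower as deposited, 6 and 11 with median centring, and 4 and 14 with reference gene centring, from -3.23 for BGLU33 to 2.88 for BGLU47 as deposited. Of 15 defensins and thionins 4 were higher and 4 lower (26.7% each, against 29.2% and 34.0% of all genes), and 4 and 11 with median centring. LCR69 differed by 2.51 ± 0.08 and PDF2.5 by 1.90 ± 0.07. Of 29 serine carboxypeptidase-like genes 8 were higher and 8 lower (27.6% each, also near the shares of all genes), 6 and 20 with median centring, and 5 and 21 with reference gene centring. In this family scpl35 differed by 1.75 ± 0.08 and scpl20 by -1.17 ± 0.08. Of 10 subtilases 4 were higher and 2 lower, and 3 and 5 with median centring, with SBT1.3 at 1.68 ± 0.08.

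The tetraspanins and the jacalin-related lectins leaned one way each. Of 15 tetraspanins, scaffold proteins of the plasma membrane, 2 were higher and 8 lower, none of them by 2-fold, 1 and 11 with median centring, and 4 were lower in the 24 h arrays alone. Of 4 jacalin-related lectins 3 were higher and none lower (median 0.92), or 2 and 1 with reference gene centring, with JAL34 at 1.24 ± 0.08.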
